A study of Homo sapiens with 18 samples.

Results

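The mitochondrial ribosomal protein genes were taken as every protein-coding gene in the deposited tables whose symbol is MRPL or MRPS followed by a number. By this rule 77 of 21662 listed genes were members, 49 named MRPL and 28 named MRPS, and read-through genes and pseudogenes were left out. The lines SNT-8 and SNT-16, together with SNK-10, are 3 human NK/T cell lymphoma lines that carry the genotype label WT. Each received either DMSO, the vehicle, or icaritin, a plant-derived prenylated flavonoid, for 12 h before RNA was taken for sequencing. The design had 6 groups of 3 replicate libraries, 18 in all, and each line is a single line, so the lines are not replicates of a disease. The sources used here give no dose of icaritin. They do not state whether replicates were separate cultures, so every p-value rests on variation among these libraries, which may be technical.

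Mitochondria carry their own ribosome, which translates only the few inner membrane subunits of oxidative phosphorylation that mitochondrial DNA encodes. Its 2 ribosomal RNAs, 12S (RNR1) and 16S (RNR2), come from mitochondrial DNA, whereas every one of its proteins is encoded in the nucleus, translated in the cytosol and imported. Some of these proteins have relatives in the bacterial ribosome and others exist only in mitochondria. The letters L and S mark the large subunit, which forms peptide bonds, and the small subunit, which decodes mRNA. MRPS18A and MRPS30 are placed in the large subunit despite their names, so that 51 members belong to the large and 26 to the small subunit.

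All 77 members were listed in every library and passed the filter on low counts. The libraries held 9526431 to 10100453 expected counts and listed 16996 to 17461 genes, and the members took 0.348% to 0.430% of the counts. Pairs of replicates differed by a chi-square per gene of 1.37 to 3.07, apart from 4 pairs. The pairs with the second SNT-8 icaritin library reached 5.96 and 8.18, and those with the third SNK-10 icaritin library 3.41 and 4.13, so these libraries stood apart from their groups. FPKM scales the fragments of a gene by its transcript length and by the size of the library, so levels can be set beside each other between genes.

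All 10 NK and T cell markers were at 1 FPKM or more in each line, and their summed level was 2851 to 3015 FPKM with DMSO and 2807 to 3116 with icaritin in SNT-8, 1573 to 1612 and 1438 to 1493 in SNK-10, and 3370 to 3447 and 3312 to 3397 in SNT-16. Single markers moved within these sums: the mean of CD2 went from 259.1 to 176.4 FPKM in SNT-8 and that of IL2RB from 169.05 to 106.8, while GZMB went from 1392 to 1717. The 5 fibroblast markers summed to 0.76 to 1.01 FPKM with DMSO and 2.32 to 2.91 with icaritin in SNT-8, 1.55 to 2.10 and 2.07 to 2.37 in SNK-10, and 0.56 to 0.88 and 1.67 to 1.86 in SNT-16. The mean of COL1A1 went from 0.53 to 1.86 FPKM in SNT-8, 0.42 to 1.21 in SNK-10 and 0.56 to 1.44 in SNT-16. PDGFRB went from 0.287 to 0.607 in SNT-8, 0.07 to 0.077 in SNK-10 and 0.07 to 0.293 in SNT-16. COL1A2 rose in no line and went from 0.94 to 0.683 in SNK-10. COL3A1 and DCN had means of at most 0.31 FPKM, and COL3A1 was at a mean of 0 in the SNT-16 groups. The 5 epithelial markers summed to 1.95 to 3.66 FPKM and lay higher with icaritin, without overlap, in SNT-8 and SNK-10. The 5 B cell markers summed to at most 2.11 FPKM and lay lower with icaritin in SNT-8, at 0.92 to 1.12 against 1.70 to 2.11. The 5 monocyte and macrophage markers summed to 17.8 to 25.8 FPKM and lay higher with icaritin in SNT-16, at 18.6 to 20.96 against 17.9 to 18.4, while the treatments overlapped in the other lines. The part of these markers in the members' response was not tested.

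Icaritin libraries held less mitochondrial ribosomal protein mRNA than DMSO libraries in each line. The 77 members summed to 3207, 3190 and 3216 FPKM in the SNT-8 DMSO libraries and to 2610, 2639 and 2653 with icaritin. In SNK-10 the sums were 3258, 3298 and 3252 FPKM with DMSO and 2594, 2630 and 2671 with icaritin. In SNT-16 they were 3276, 3262 and 3262 FPKM with DMSO and 2758, 2809 and 2826 with icaritin. The groups did not overlap in any line, and the mean sum changed by -17.8% in SNT-8, -19.5% in SNK-10 and -14.4% in SNT-16. The 79 cytosolic ribosomal protein mRNAs, which encode the ribosome outside mitochondria, changed in sum by 9.56%, -0.0701% and 8.62% in the same order. The 80 nuclear-encoded subunits of oxidative phosphorylation, many of which assemble with products of the mitochondrial ribosome, changed by -6.05%, -9.31% and -5.11%. These sums carry no TMM factor, the library scaling used in the tests below, so their order between lines depends on scaling. Without that factor the members' median log2 fold change was -0.26 in SNT-8 and -0.30 in SNK-10, and with it -0.31 and -0.27. The median of all genes without it was 0.07 in SNT-8 and -0.02 in SNK-10. In bulk RNA, fewer cells of a kind and less RNA per cell cannot be told apart.

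**Figure D1:**
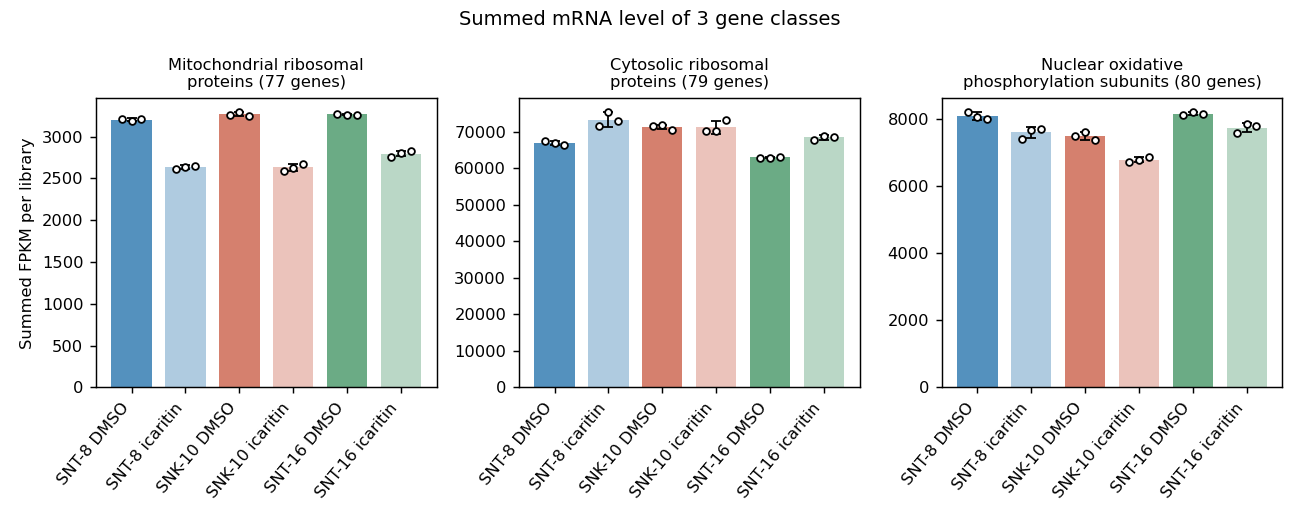
Summed FPKM per library (vertical axis, starting at 0) of 3 gene classes in the 6 groups; bars are group means, error bars the SD of 3 libraries and circles the libraries. The mitochondrial ribosomal proteins lie between 2594 and 2826 FPKM in every icaritin library and between 3190 and 3298 in every DMSO library.

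Gene by gene, most members fell. In SNT-8, 57 of 77 members fell and 3 rose at an adjusted p under 0.05, against 25.0% and 24.0% of all 14396 tested genes. In SNK-10, 50 fell and 1 rose, where 24.0% and 24.4% of all genes did so. In SNT-16, 45 fell and 2 rose, beside 20.8% and 21.2% of all genes. On the average of the 3 lines 61 members fell, 3 rose and 13 did not pass, beside 30.0% lower and 31.7% higher among all genes. Of the 78 tested nuclear subunits of oxidative phosphorylation 41 fell and 9 rose on that average, so frequent falls were not particular to the members. Of the 79 cytosolic ribosomal proteins 3 fell and 43 rose. The changes were mostly small: the median log2 fold change of the members was -0.31 in SNT-8, -0.27 in SNK-10 and -0.22 in SNT-16, whereas that of all genes was 0.02, 0.01 and 0.02. Falls of at least 1.5-fold numbered 12 in SNT-8, 6 in SNK-10 and 7 in SNT-16, and the only rise of that size was that of MRPL10 in SNK-10. The shares of all genes past that cut in each line are not given here, so these counts are not read as a result about the members. On the average of the lines deep falls were not much more frequent than among all genes. Whatever the adjusted p, 10.39% of members and 7.29% of all genes had an average log2 fold change at or below -0.6. At or below -0.9 the shares were 1.3% and 2.81%. The counts of falling members differed between tests and scalings by less than 1.5 times. Without the second SNT-8 icaritin library 57 members fell in SNT-8, and without the third SNK-10 icaritin library 52 fell in SNK-10.

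The lines shared most of these falls. In all 3 lines 39 members fell, beside 14.3% of all genes, and only MRPL10 rose in all 3, beside 13.0% of all genes. For 42 members the icaritin libraries lay below every DMSO library of the same line in each of the 3 lines, beside 15.9% of all genes. No member was called in opposite directions in different lines, but the share of all genes so called was not counted. A further 13 members passed in no line: MRPL1, MRPL11, MRPL21, MRPL23, MRPL30, MRPL37, MRPL45, MRPL48, MRPS10, MRPS14, MRPS18A, MRPS18B and MRPS22. Of these, MRPL21 and MRPL37 passed on the average of the lines, with -0.12 and 0.07, and the others had averages from -0.11 for MRPS14 to 0.09 for MRPL1. The 3 icaritin comparisons use separate control libraries, one set for each line.

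**Figure D2:**
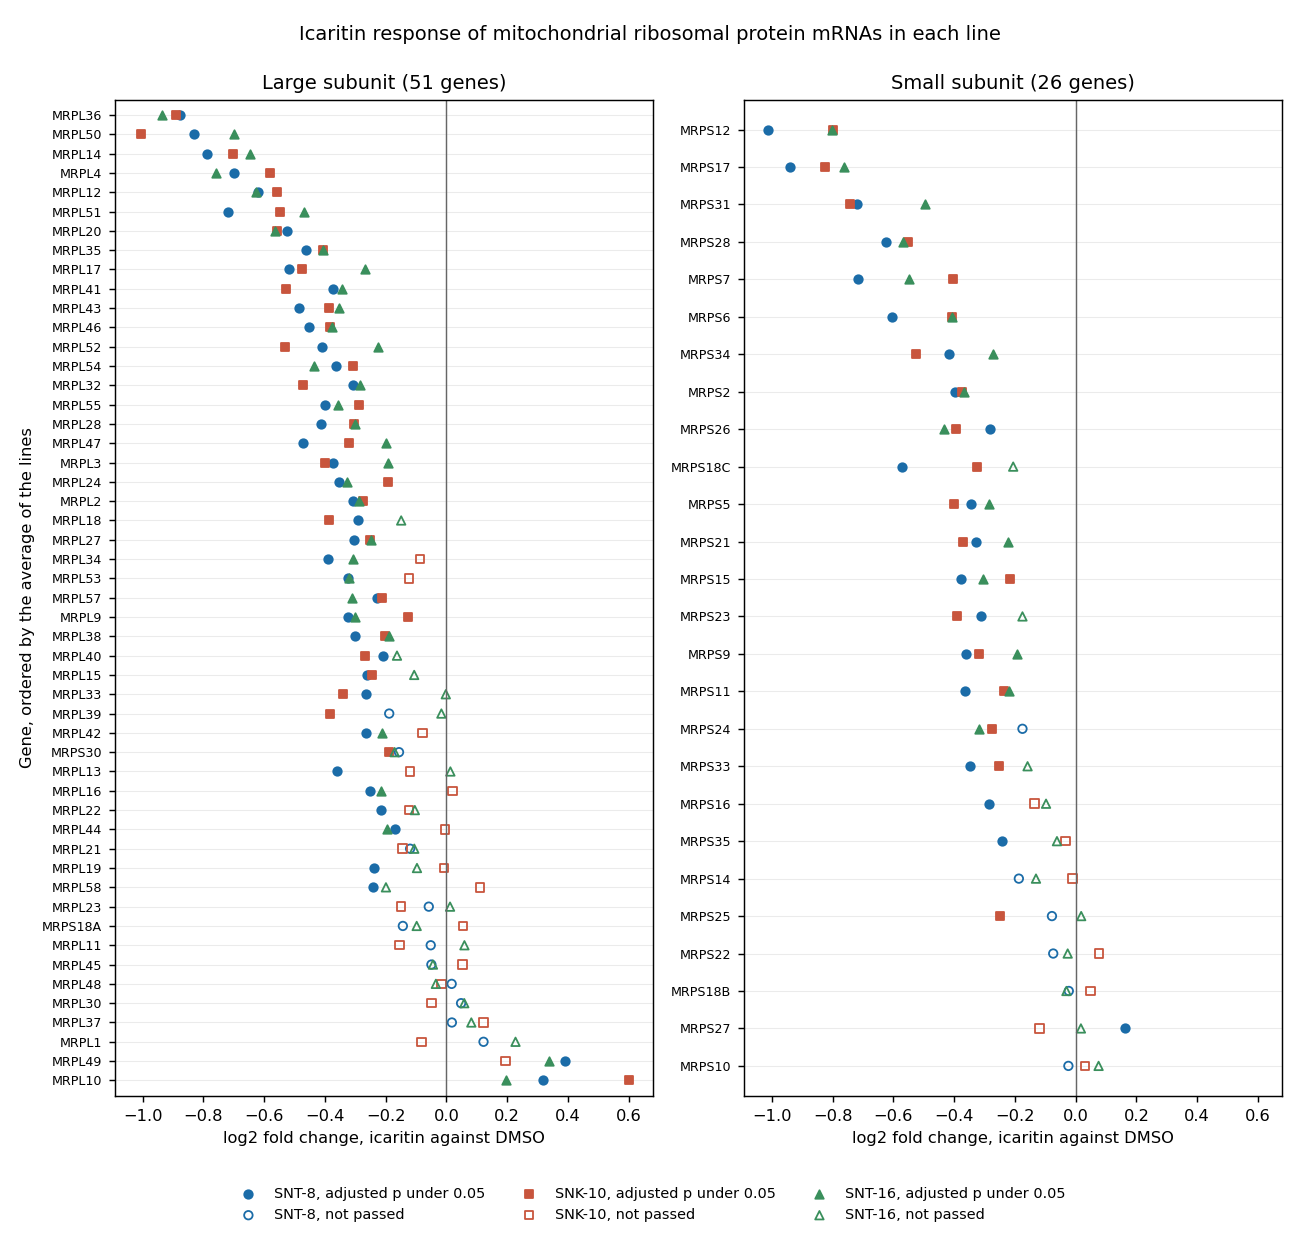
The log2 fold change of icaritin against DMSO (horizontal axis) for each of the 51 large subunit and 26 small subunit members, ordered by the average of the lines; circles are SNT-8, squares SNK-10 and triangles SNT-16, filled where the adjusted p was under 0.05. Most symbols lie left of 0, and MRPL36, MRPS12, MRPL50 and MRPS17 lie farthest left.

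**Figure D3:**
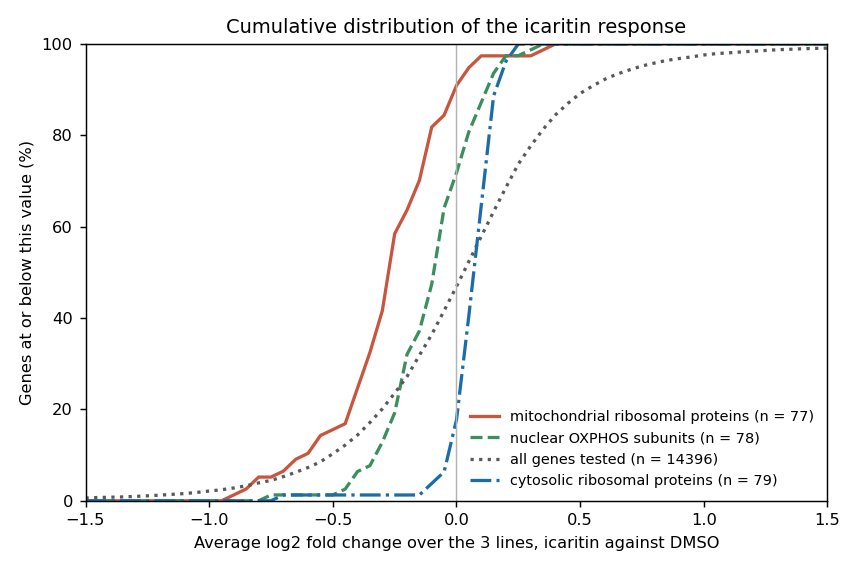
Cumulative share of genes (vertical axis, in %) at or below each average log2 fold change of the 3 lines (horizontal axis) for 77 mitochondrial ribosomal proteins, 78 tested nuclear subunits of oxidative phosphorylation, 79 cytosolic ribosomal proteins and all 14396 tested genes. The members' curve lies left of the others over most of its range, with a median of -0.27 where all genes have 0.03.

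On the average of the lines the deepest fall in the large subunit was that of MRPL36, which encodes bL36m, a small protein with a bacterial relative. It was measured at 39.5, 36.9 and 34.7 FPKM in the SNT-8 DMSO libraries and 18.4, 19.3 and 24.7 with icaritin. In SNK-10 it was at 38.8, 40.4 and 47.2 FPKM with DMSO and 22.2, 23.2 and 21.3 with icaritin. In SNT-16 the values were 43.8, 40.5 and 39.00 and 21.9, 22.3 and 21.3 FPKM. Every icaritin library lay below every DMSO library. The log2 fold change was -0.88 in SNT-8, -0.89 in SNK-10 and -0.94 in SNT-16, and the average was -0.90 (SE 0.06, adjusted p = 2.47e-16), a change of -46.5%. MRPL36 overlaps NDUFS6, a gene for a complex I subunit on the other strand, and the strand setting of the counting is not given in the sources used here, so how their reads were split is uncertain.

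MRPL50, a large subunit protein with no bacterial relative, was the next of the large subunit. Its level was 20.6, 15.9 and 14.4 FPKM in the SNT-8 DMSO libraries and 11.7, 7.81 and 10.2 with icaritin. In SNK-10 it was 24.3, 26.9 and 25.1 FPKM with DMSO and 14.96, 10.4 and 11.8 with icaritin, and in SNT-16 20.4, 21.3 and 18.8 and 12.02, 12.3 and 13.6. The groups did not overlap in any line, although the SNT-8 libraries were spread widely. The log2 fold change was -0.83 in SNT-8, -1.01 in SNK-10 and -0.70 in SNT-16, in SNK-10 a deeper one than that of MRPL36, and the average was -0.85 (SE 0.08, adjusted p = 5.48e-12).

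MRPL14 encodes uL14m, which lies at the face that meets the small subunit. It was at 32.2, 30.9 and 33.1 FPKM in the SNT-8 DMSO libraries and 18.4, 20.6 and 18.5 with icaritin. The SNK-10 values were 29.1, 33.5 and 33.3 FPKM with DMSO and 18.1, 18.5 and 21.7 with icaritin, and the SNT-16 values 35.9, 35.99 and 36.2 and 24.1, 22.6 and 23.9. Its average change was -0.71 (SE 0.05, adjusted p = 2.1e-15), and it overlaps TMEM63B on the other strand. MRPL4, a protein that reaches into the wall of the exit tunnel, fell by a similar size. Its level was 62.5, 64.2 and 59.4 FPKM in the SNT-8 DMSO libraries and 34.6, 37.4 and 44.2 with icaritin, and the average change was -0.68 (SE 0.04, adjusted p = 6.4e-19), with -0.70 in SNT-8, -0.58 in SNK-10 and -0.76 in SNT-16.

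In the small subunit the deepest falls were those of MRPS12 and MRPS17, both with bacterial relatives. MRPS12 encodes uS12m, a protein of the decoding centre. It was at 31.2, 32.6 and 35.5 FPKM in the SNT-8 DMSO libraries and 15.7, 13.6 and 21.4 with icaritin. In SNK-10 it was at 43.8, 40.6 and 42.6 FPKM with DMSO and 22.3, 25.6 and 22.6 with icaritin, and in SNT-16 at 35.3, 38.4 and 38.8 and 21.3, 24.2 and 20.4. Each line showed a gap between the groups, and the average change was -0.87 (SE 0.06, adjusted p = 8.18e-17), or -45.3%. MRPS17, which encodes uS17m, was at 32.3, 38.7 and 35.1 FPKM in the SNT-8 DMSO libraries and 19.4, 19.7 and 18.1 with icaritin. Its SNK-10 values were 38.3, 35.1 and 33.3 and 17.6, 19.5 and 21.7 FPKM, and its SNT-16 values 36.1, 30.8 and 32.9 and 18.8, 20.9 and 19.97. The average change of MRPS17 was -0.84 (SE 0.06, adjusted p = 1.01e-14), with no overlap between groups in any line.

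Both subunits moved in the same direction. The MRPL genes had a median log2 fold change of -0.31, -0.25 and -0.22 in SNT-8, SNK-10 and SNT-16, and the MRPS genes of -0.34, -0.30 and -0.21. On the average of the lines 40 of 51 large subunit members fell, 3 rose and 8 did not pass, and 21 of 26 small subunit members fell, 0 rose and 5 did not pass. At an unadjusted p under 0.05 also 0 small subunit members were higher by edgeR. Of 46 members with bacterial relatives 39 fell and 1 rose, with a median of -0.29. Of 31 members without such relatives 22 fell and 2 rose, with a median of -0.21. These medians were not tested against each other.

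In each structural neighbourhood of the large subunit some members fell and others did not. These groups are small, and among all genes 30.0% were lower and 31.7% higher on the average of the lines. Among 5 proteins of the stalk that receives translation factors, 3 fell, 1 rose and 1 did not pass on the average of the lines. MRPL12, the stalk's mobile arm, fell with -0.60 (SE 0.04, adjusted p = 1.16e-17), and its levels were 87.3, 84.7 and 87.8 FPKM in the SNT-8 DMSO libraries and 52.9, 61.9 and 59.9 with icaritin. MRPL10, the protein that anchors MRPL12 copies, rose, as described below, and MRPL11 did not pass with -0.05 (SE 0.04, adjusted p = 0.265). MRPL53 changed by -0.26 (SE 0.06) on average and passed there with an adjusted p of 0.000671. Its value of -0.33 in SNT-8 became -0.16 with an adjusted p of 0.285 without the first SNT-8 icaritin library, and -0.29 with 0.0831 without the first SNT-8 DMSO library. In SNT-16 its value of -0.32 became -0.28 with an adjusted p of 0.0818 without the first DMSO library and -0.29 with 0.0668 without the second icaritin library. Of 6 proteins at the rim of the exit tunnel, where new peptides leave, 4 fell and 2 did not pass. Within that rim MRPL24 changed by -0.29 (SE 0.03) and MRPL45, which holds the ribosome to the inner membrane, did not pass with -0.01 (SE 0.05, adjusted p = 0.849). Of 5 proteins of the central protuberance, a ridge that faces the small subunit, 4 fell and 1 did not pass.

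The other small subunit members that fell did so by less. The next deepest was MRPS31, given below with its promoter letters, with an average change of -36.4%. MRPS28 was at 29.02, 29.8 and 26.5 FPKM in the SNT-8 DMSO libraries and 19.96, 16.3 and 20.9 with icaritin, and its average change was -0.58 (SE 0.06, adjusted p = 2.55e-10). MRPS7, which encodes uS7m of the small subunit head, was at 34.9, 32.1 and 31.2 and 22.8, 18.2 and 20.8 FPKM there, with an average of -0.56 (SE 0.05, adjusted p = 8.22e-14). MRPS6 fell with -0.47 (SE 0.04, adjusted p = 5.52e-14). The levels of MRPS28, MRPS7 and MRPS6 did not overlap between the SNT-8 groups. MRPS34, MRPS2, MRPS5, MRPS21 and MRPS15 each fell in all 3 lines, with averages of -0.40, -0.38, -0.34, -0.31 and -0.30. MRPS9 did so with -0.29. MRPS23, MRPS24, MRPS33, MRPS16 and MRPS35 fell on the average but in only 1 or 2 of the lines, with averages of -0.29, -0.26, -0.25, -0.17 and -0.11. MRPS2, MRPS6, MRPS7, MRPS9, MRPS16, MRPS24 and MRPS34 overlap other genes in the annotation.

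Many large subunit members also fell by less than MRPL36 and MRPL50. MRPL35, MRPL41, MRPL54, MRPL55, MRPL32, MRPL28, MRPL47, MRPL2, MRPL27 and MRPL38 fell in each of the 3 lines, with averages from -0.42 for MRPL35 to -0.23 for MRPL38. MRPL34 did not pass in SNK-10, where it changed by -0.09, nor did MRPL16 and MRPL44, with 0.02 and -0.00, and on the average these 3 fell with -0.26, -0.15 and -0.12. MRPL33, MRPL15 and MRPL40 did not pass in SNT-16, with -0.00, -0.11 and -0.16, and on the average fell with -0.20, -0.20 and -0.21. MRPL58, a release factor built into the large subunit that can free stalled peptides, passed only in SNT-8. It was at 32.1, 30.6 and 30.7 FPKM in the SNT-8 DMSO libraries and 29.1, 26.96 and 25.5 with icaritin, and changed by -0.24 (SE 0.09, adjusted p = 0.0222) there and by -0.11 (SE 0.05, adjusted p = 0.068) on the average.

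The 3 members of the MRPS18 family are paralogs, descended from one gene and built into different places of the ribosome. MRPS18C fell on average with -0.37 (SE 0.05, adjusted p = 1.6e-07), and its levels were 25.2, 28.9 and 29.9 FPKM in the SNT-8 DMSO libraries and 20.96, 20.3 and 17.3 with icaritin. MRPS18B did not pass with -0.00 (SE 0.03, adjusted p = 0.987), from 45.5, 46.7 and 44.1 FPKM with DMSO and 48.7, 43.4 and 46.6 with icaritin in SNT-8. MRPS18A did not pass either, with -0.06 (SE 0.05, adjusted p = 0.238). In SNT-16 alone MRPS18C changed by -0.21 (SE 0.09) with an adjusted p of 0.0655, which misses the threshold.

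MRPL10 went the other way from most members. It was at 29.6, 27.2 and 25.3 FPKM in the SNT-8 DMSO libraries and 35.9, 35.01 and 35.2 with icaritin. In SNK-10 it was at 20.2, 21.01 and 20.9 FPKM with DMSO and 31.4, 31.2 and 30.6 with icaritin. In SNT-16 the values were 29.8, 29.8 and 30.7 and 34.4, 34.3 and 36.3 FPKM. Icaritin libraries lay above DMSO libraries in each line, and the gap was widest in SNK-10, whose DMSO level was the lowest of the 3 lines. The log2 fold change was 0.32 (SE 0.06, adjusted p = 3.6e-05) in SNT-8, 0.60 (SE 0.07, adjusted p = 5.03e-10) in SNK-10 and 0.20 (SE 0.06, adjusted p = 0.00776) in SNT-16. Without the third SNT-16 icaritin library the rise in that line was 0.16 with an adjusted p of 0.0603. The response in SNK-10 exceeded that in SNT-8 by 0.28 (SE 0.09, adjusted p = 0.0335) and that in SNT-16 by 0.40 (SE 0.09, adjusted p = 0.00156).

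MRPL49, a large subunit protein without a bacterial relative, also rose. It was at 40.9, 39.1 and 39.5 FPKM in the SNT-8 DMSO libraries and 49.1, 63.99 and 48.7 with icaritin. In SNK-10 the values were 48.9, 47.6 and 47.4 FPKM with DMSO and 56.5, 50.1 and 54.2 with icaritin, and in SNT-16 41.96, 43.1 and 41.1 and 53.7, 56.9 and 51.6. Icaritin libraries lay above DMSO libraries in each line, and the second SNT-8 icaritin library stood above the rest. The log2 fold change was 0.39 (SE 0.08, adjusted p = 0.00042) in SNT-8 and 0.34 (SE 0.08, adjusted p = 0.00193) in SNT-16, and in SNK-10 it was 0.19 (SE 0.08, adjusted p = 0.0538), which misses the threshold. Leaving out the second SNT-8 icaritin library gave 0.24 in SNT-8, still past the threshold. MRPL49 overlaps SYVN1 on the other strand, so reads may have been divided between them. MRPL37 passed only on the average, at 0.07 (SE 0.03, adjusted p = 0.0366), and lost the threshold in 10 of the 18 fits that left out 1 library.

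**Figure D4:**
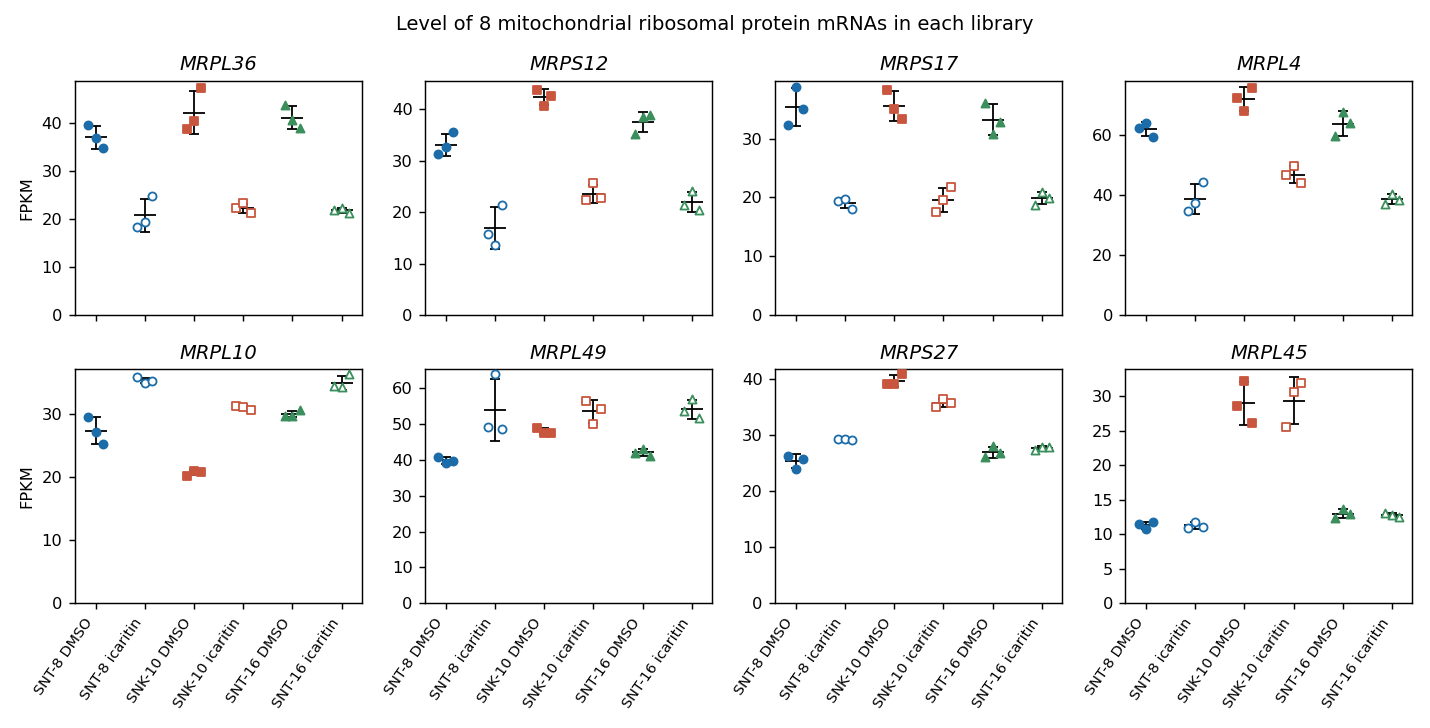
FPKM (vertical axes, each starting at 0) of 8 members in the 18 libraries; filled symbols are DMSO, open symbols icaritin, dashes the group means and error bars the SD of 3 libraries. MRPL36, MRPS12, MRPS17 and MRPL4 lie lower with icaritin in each line, MRPL10 and MRPL49 lie higher, and MRPL45 and MRPS27 differ between SNK-10 and the other lines.

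The response to icaritin differed between lines for 3 of 77 members in a test of the difference over all lines, beside 14.3% of all genes. These were MRPL10 (adjusted p = 0.00386), MRPS27 (adjusted p = 0.0259) and MRPL13 (adjusted p = 0.0367). In pairwise tests 2 members differed in response between SNK-10 and SNT-8, beside 10.8% of all genes. Between SNK-10 and SNT-16 there were 4, MRPL10, MRPL3, MRPL39 and MRPS25, beside 12.5% of all genes. The difference, as SNK-10 minus SNT-16, was -0.20 (SE 0.07, adjusted p = 0.0449) for MRPL3, -0.37 (SE 0.12, adjusted p = 0.0394) for MRPL39 and -0.27 (SE 0.09, adjusted p = 0.0329) for MRPS25. In SNK-10 and SNT-16 the log2 fold changes were -0.40 and -0.19 for MRPL3, -0.38 and -0.02 for MRPL39 and -0.25 and 0.02 for MRPS25. Between SNT-16 and SNT-8 the edgeR test called 0 members, with 9 at an unadjusted p under 0.05, and 0.438% of all genes. MRPS27, a small subunit protein of the RNA-binding pentatricopeptide repeat family, was at 26.3, 23.9 and 25.7 FPKM in the SNT-8 DMSO libraries and 29.3, 29.4 and 29.1 with icaritin. In SNK-10 it was at 39.1, 39.02 and 40.9 and 34.99, 36.5 and 35.6 FPKM. The log2 fold change of MRPS27 was 0.16 (SE 0.05, adjusted p = 0.014) in SNT-8 and -0.12 (SE 0.05, adjusted p = 0.0546) in SNK-10, and the rise in SNT-8 was 0.12 with an adjusted p of 0.111 without the second SNT-8 DMSO library. For MRPL13 the 3 values were -0.36 in SNT-8, -0.12 in SNK-10 and 0.01 in SNT-16, and the difference between lines passed in 7 of the 18 fits without 1 library.

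Before treatment the lines also differed, for the members no more often than for all genes. Between the DMSO libraries of SNK-10 and SNT-8, 44 members differed, 27 higher and 17 lower in SNK-10, beside 57.6% of all genes. Between SNK-10 and SNT-16, 39 differed, 26 higher and 13 lower in SNK-10, beside 57.8% of all genes. SNT-16 and SNT-8 differed for 3 members, beside 13.2% of all genes: MRPL53, MRPL57 and MRPS26 were higher in SNT-16. MRPL45 was at 28.6, 32.3 and 26.1 FPKM in SNK-10 with DMSO, 11.5, 10.7 and 11.7 in SNT-8 and 12.4, 13.6 and 12.98 in SNT-16. Its level in SNK-10 exceeded that in SNT-8 by 1.37 (SE 0.09, adjusted p = 1.83e-16) on the log2 scale, with no overlap between the groups. MRPL18, a protein of the central protuberance, was lower, at 29.6, 37.6 and 34.2 FPKM in SNK-10 and 73.4, 72.6 and 72.6 in SNT-8. That difference was -1.10 (SE 0.07, adjusted p = 8.8e-17). MRPS27 was higher in SNK-10 than in SNT-8 with 0.66 (SE 0.05, adjusted p = 7.1e-14) and MRPL53 with 0.81 (SE 0.11, adjusted p = 2.55e-08). In the comparison with SNT-16, MRPL40 was higher in SNK-10, with 0.55 (SE 0.07, adjusted p = 2.57e-08). MRPL9 was lower in SNK-10 than in SNT-8, with a difference of -0.50 (SE 0.05, adjusted p = 1.29e-11).

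Levels ranged widely among members although the ribosome holds most of its proteins in equal number. The mean FPKM over the 18 libraries was highest for MRPL3 at 131, MRPL24 at 101, MRPL51 at 98.0 and MRPL37 at 97.3. It was lowest for MRPL19 at 8.75, MRPL22 at 11.4, MRPL42 at 15.2 and MRPS14 at 15.3. Across the 77 genes the average log2 fold change and the log2 level had a Pearson correlation of -0.066, a description over genes that share their libraries. Abundant and scarce members both fell: MRPL3, at 163.3, 151.4 and 159.4 FPKM in SNT-8 with DMSO, changed by -0.32 (SE 0.03) on average, and MRPL42, at 15.9, 15.6 and 16.8, by -0.18 (SE 0.04). Both passed, with adjusted p of 6.32e-13 and 0.000201.

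Proteins of the mitochondrial ribosome that carry other names were read from a separate list. Of 5 such genes 4 fell and 1 rose on the average of the lines, where 30.0% of all genes were lower and 31.7% higher. PTCD3, a small subunit protein with pentatricopeptide repeats, changed by -0.55 (SE 0.03, adjusted p = 3.98e-17), and was at 11.1, 11.3 and 11.7 FPKM with DMSO and 7.61, 7.23 and 8.17 with icaritin in SNT-8. Also lower were CHCHD1 with -0.47 (SE 0.06), AURKAIP1 with -0.37 (SE 0.03) and GADD45GIP1 with -0.25 (SE 0.04). DAP3, a GTP-binding protein of the small subunit, was the one that rose, with 0.09 (SE 0.03, adjusted p = 0.00702).

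Genes that build and serve the mitochondrial ribosome were read from 3 further lists, whose counts stand beside 30.0% lower and 31.7% higher among all genes on the average of the lines. Of 26 genes for its assembly and the modification of its ribosomal RNA, 19 fell and 3 rose on average, with a median of -0.24. MRM1, a methyltransferase of the 16S RNA, changed by -1.11 (SE 0.06, adjusted p = 2.46e-18), from 11.7, 12.8 and 11.4 FPKM to 4.97, 4.75 and 6.55 in SNT-8. DHX30, an RNA helicase, changed by -0.57 (SE 0.03), and FASTKD2 and C1QBP by -0.56 (SE 0.04) and -0.36 (SE 0.03). Of 15 tested genes for mitochondrial RNA processing and stability, 11 fell and 1 rose, with a median of -0.42. TRMT10C, a subunit of the mitochondrial ribonuclease P, changed by -1.07 (SE 0.05, adjusted p = 7.35e-20), and ELAC2, which trims the other end of transfer RNAs, by -0.61 (SE 0.03). FASTKD5 and TBRG4, related RNA-binding proteins, changed by -0.79 (SE 0.04) and -0.72 (SE 0.04). Of 16 translation factors 10 fell and 1 rose, with a median of -0.17. Among these GFM1, an elongation factor, changed by -0.31 (SE 0.03, adjusted p = 7.1e-12) and PDF, the peptide deformylase, by -0.54 (SE 0.07, adjusted p = 2.92e-08). OXA1L, the insertase that takes new proteins from the ribosome into the membrane, rose, with 0.20 (SE 0.03, adjusted p = 3.23e-08).

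Reads of the ribosomal RNAs of the same particle took a larger share of the counts with icaritin. How far library preparation shaped these shares was not tested. RNR2 took 1.19% to 1.33% of the counts of the SNT-8 DMSO libraries and 2.12% to 2.78% with icaritin. In SNK-10 its share was 1.501% to 1.55% and 4.59% to 5.12%, and in SNT-16 0.830% to 0.889% and 1.65% to 1.77%. The groups were apart in each line. On the log2 scale RNR1 changed by 0.72 in SNT-8, 1.76 in SNK-10 and 0.80 in SNT-16 and RNR2 by 0.85 in SNT-8, 1.71 in SNK-10 and 0.96 in SNT-16, each past the threshold, with an adjusted p of at most 2.4e-05. With both genes left out of the fit, 57 members fell in SNT-8, 50 in SNK-10 and 46 in SNT-16.

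Sequence before the start of transcription was read from RefSeq for 69 of the 77 members, in windows of the GRCh38.p14 build that run from 250 bases before to 50 bases after the start. In the windows of 29 members, or 42.0%, the ETS-type letters CCGGAAG were found on either strand, beside 10.67% of all 27305 windows and 19.62% of 10179 windows of tested coding genes. The YY1-type letters AAGATGGCG were in 13 windows, or 18.8%, beside 1.85% and 4.06%. The NRF1-type letters GCGCATGC were in 6, or 8.7%, beside 3.27% and 5.62%, and the E-box CACGTG in 6, beside 7.43% and 10.14%. None of the 4 motifs contains another, and 4 members had both ETS-type and YY1-type letters. The 100 bases before the start are printed here for 4 members that fell in all 3 lines and for 2 with ETS-type letters that passed in none. Like letters can thus be seen beside unlike responses for the ETS-type only. MRPS18B, not printed, has NRF1-type and YY1-type letters and also passed in no line. The window of MRPL52 also holds NRF1-type and ETS-type letters, and that of MRPS10 YY1-type letters. Capitals mark matches to any of the 4 motifs on either strand, and a match at the end of a line may continue past the start.
MRPL20: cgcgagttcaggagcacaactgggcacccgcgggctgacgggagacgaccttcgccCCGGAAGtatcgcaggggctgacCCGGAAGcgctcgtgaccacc
MRPS31: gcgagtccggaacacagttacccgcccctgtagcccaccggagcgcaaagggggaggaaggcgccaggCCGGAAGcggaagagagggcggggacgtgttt
MRPL52: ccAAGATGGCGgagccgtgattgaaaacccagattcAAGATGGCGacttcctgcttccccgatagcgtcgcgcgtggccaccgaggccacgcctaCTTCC
MRPL17: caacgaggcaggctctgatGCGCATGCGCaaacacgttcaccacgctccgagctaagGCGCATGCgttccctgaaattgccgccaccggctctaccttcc
MRPS22: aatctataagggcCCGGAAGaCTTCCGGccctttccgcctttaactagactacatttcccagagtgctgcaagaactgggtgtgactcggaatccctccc
MRPS10: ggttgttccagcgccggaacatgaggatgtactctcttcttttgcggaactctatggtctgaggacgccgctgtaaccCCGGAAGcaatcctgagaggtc
The stretches lie at chr1:1407294-1407393 for MRPL20, chr13:40771191-40771290 for MRPS31 and chr11:6683341-6683440 for MRPL17, all on the minus strand, and at chr14:22829787-22829886 for MRPL52 on the plus strand. MRPS22 lies at chr3:139343894-139343993 on the plus strand and MRPS10 at chr6:42217862-42217961 on the minus strand. A match is a run of letters and not evidence that a factor binds there.

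The responses of members with and without each motif were set side by side with no test. With ETS-type letters the median log2 fold change on the average of the lines was -0.29, with 23 of 29 fallen, and without them it was -0.27, with 32 of 40 fallen. MRPL20, with 2 matches in the printed stretch, fell with -0.55 (SE 0.04, adjusted p = 1.02e-15), from 73.7, 76.4 and 79.9 FPKM to 53.95, 51.7 and 57.8 in SNT-8. MRPS31, with 1, fell with -0.65 (SE 0.04, adjusted p = 4.91e-16). MRPS22, also with 2 matches, did not pass with -0.01 (SE 0.05, adjusted p = 0.906), and neither did MRPS10 with 0.03 (SE 0.04, adjusted p = 0.551). For the YY1-type letters the medians were -0.23 with and -0.28 without, and MRPL52, with 2 matches in the printed stretch, fell with -0.39 (SE 0.05, adjusted p = 1.12e-09). For the NRF1-type letters they were -0.36 with and -0.27 without, and MRPL17 fell with -0.42 (SE 0.03, adjusted p = 1.38e-13). The 6 members with an E-box had a median of -0.08, with 3 fallen and 2 risen, the latter being MRPL37 and MRPL49, whereas members without had -0.27. MRPL10, which also rose, had no window and was not searched.

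Many members share a start region with a gene on the other strand. For 26 members the start of another tested coding gene, running the opposite way, lay within 1000 bases, and 1 further pair, MRPL46 and MRPS11, joins 2 members that both fell. Of the 26 neighbours 12 fell and 6 rose on the average of the lines, with a median of -0.11, beside 30.0% lower and 31.7% higher among all genes. Of the 20 neighbours of members that fell, 10 fell, 4 rose and 6 did not pass. SARS2, the mitochondrial seryl-tRNA synthetase beside MRPS12, changed by -0.40 (SE 0.06, adjusted p = 7.53e-08). TWNK, the mitochondrial DNA helicase beside MRPL43, changed by -1.19 (SE 0.05, adjusted p = 1.06e-21), beside -0.41 (SE 0.05) for MRPL43. TCP1, a chaperonin subunit beside MRPL18, changed by -0.64 (SE 0.03, adjusted p = 1.16e-22). Beside MRPL50, which fell in each line, ZNF189 fell in SNK-10 with -0.31 (SE 0.12, adjusted p = 0.0267), rose in SNT-16 with 0.27 (SE 0.10, adjusted p = 0.0313) and did not pass on the average with -0.09 (SE 0.06, adjusted p = 0.231). Beside MRPS18B, which did not pass, PPP1R10 changed by -1.24 (SE 0.10, adjusted p = 8.86e-08). FAU, a cytosolic ribosomal protein gene beside MRPL49, fell in SNT-8 with -0.12 (SE 0.05, adjusted p = 0.0332) and in SNK-10 with -0.12 (SE 0.05, adjusted p = 0.0435), and did not pass on the average with -0.06 (SE 0.03, adjusted p = 0.0635). LRRC46, beside MRPL10, rose with 0.48 (SE 0.17, adjusted p = 0.0135).

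**Figure D5:**
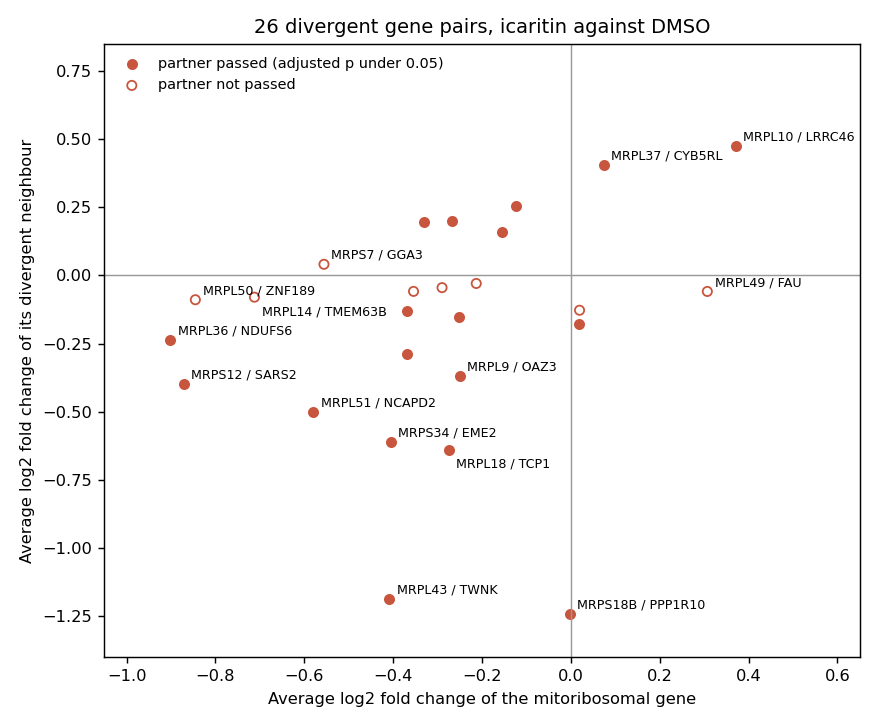
Average log2 fold change of 26 members (horizontal axis) and of the coding gene that starts within 1000 bases on the other strand (vertical axis), icaritin against DMSO over the 3 lines; filled circles are neighbours with an adjusted p under 0.05. Neighbours of falling members lie on both sides of 0, with TWNK at -1.19 and IGHMBP2 at 0.26.

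Some counts could include reads of other genes. In the annotation 19 members overlap another tested gene, 16 of them on the opposite strand. Besides those already given with such a gene, these are MRPL2, MRPL9, MRPL20, MRPL24, MRPL37, MRPL43, MRPL47, MRPS18C and MRPS25. For 41 members it holds a pseudogene of the same name. In all, 106 pseudogenes carry MRPL or MRPS names, 6 of them that of MRPS36, which is not a member. Of the 106, 3 were listed in the deposited tables. How reads shared by such copies were assigned is not given in the sources used here.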

How the data were processed

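The 18 libraries come from 3 cell lines. Per the labels, total RNA was taken with Trizol and 1 ug entered an MGIEasy library kit. The submitters' processing notes name Bowtie2 and HISAT. For the quantification tool, genome build and strand setting the sources used here give no entry. Per the file headers, the authors deposited for each gene an expected count, its transcript length in bases, and FPKM. A gene absent from a library's table was taken as 0.

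Expected counts were rounded and tested with edgeR 4.0.16 (quasi-likelihood, robust, TMM scaling) in R 4.3.3, after filterByExpr with a minimum count of 10 and total of 15. All 18 libraries entered 1 fit of 6 group means, so that the groups share 1 estimate of the spread, and p-values were adjusted by Benjamini-Hochberg over 14396 genes, with a threshold of 0.05. The average gives the 3 lines equal weight. The SE was derived as |log2 fold change| over the root of F. The fit was tested on simulated data.

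Genes were named through NCBI Gene ID with RefSeq's GRCh38.p14 table (21559 of 21662 IDs). The members and lists were chosen with earlier results of these data known, and the lists of cytosolic ribosomal and oxidative phosphorylation genes were made after the tables were seen. Members named in the text were, in each line, the 4 largest falls and 3 largest rises, on the average 6 and 4, the 5 smallest p of the difference between lines, the 3 largest DMSO differences in each direction, the 4 highest and 4 lowest levels, and the MRPS18 family. Of each other list up to 4 genes with the smallest p on the average of the lines were named, and DAP3 was named after its value was seen. All other members, such as those of structural groups, with printed sequences or with neighbours, were named after their values were seen. Alternatives were other scalings, no filter, DESeq2 1.42.0, a replicate block, single-line fits, no RNR1 and RNR2, limma 3.58.1 on log2(FPKM + 1) and log2(FPKM + 0.1), and leaving out each library. Replicates of a group differed by more than counting error, with a chi-square per gene of 1.37 to 8.18, highest for the second SNT-8 icaritin library.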

Additional observations from a re-analysis of the deposited data

Results flagged for a closer look

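The response to icaritin differed between the lines for 3 members in the test of the difference over all 3 lines (edgeR). For MRPL10 the adjusted p of that difference was 0.00386, with log2 fold changes of 0.32 in SNT-8, 0.60 in SNK-10 and 0.20 in SNT-16. It stayed between 0.00185 and 0.0163 over the 18 fits without 1 library and between 0.00223 and 0.0141 over 8 other settings. For MRPS27 it was 0.0259, with 0.16 in SNT-8, -0.12 in SNK-10 and 0.02 in SNT-16, and it passed in 15 of the 18 fits without 1 library and in 5 of 8 other settings. Without the second SNT-8 DMSO library it was 0.096, without the third SNK-10 DMSO library 0.0784 and without the first SNK-10 icaritin library 0.0772. For MRPL13 it was 0.0367, with -0.36 in SNT-8, -0.12 in SNK-10 and 0.01 in SNT-16, and it passed in 7 of the 18 fits, with values from 0.0101 to 0.102, and in 5 of 8 other settings.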

How the results depend on the processing

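No value past the threshold changed sign, whereas some near 0 that did not pass did so, such as the average of MRPL45. Of 3233 values of named members under other settings, 3122 stayed on their side of the threshold, 63 lost and 48 gained the threshold. The counts of falling members stayed within 1.5 times of the reported value in each line and on the average under every setting run. Without TMM factors the medians were -0.26 (MRPL) and -0.29 (MRPS) in SNT-8 and -0.29 (MRPL) in SNK-10, 8 members differed between lines in response, and 5 differed between DMSO libraries of SNT-16 and SNT-8. With limma on log2(FPKM + 1) the MRPL and MRPS medians were -0.26 and -0.27 in SNT-8, -0.28 and -0.34 in SNK-10 and -0.19 and -0.18 in SNT-16, and on log2(FPKM + 0.1) they were -0.26 and -0.28 in SNT-8 and -0.28 and -0.35 in SNK-10. Both limma fits gave 8 members whose response differed between lines, and DESeq2 gave 1. DMSO differences of SNT-16 and SNT-8 numbered 6 without the filter and 1 with DESeq2. Members higher in SNK-10 numbered 3 with DESeq2 size factors and 2 without the filter, with DESeq2 and in the fit of that line alone.

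A replicate block left 2 members higher in SNK-10. All 18 libraries stayed in that fit, and its DMSO comparison of lines was between the fitted levels at replicate 1. By it 29 (SNK-10 and SNT-8), 24 (SNK-10 and SNT-16) and 1 (SNT-16 and SNT-8) differed. Libraries of the same number showed no common deviation (correlations of -0.0594 to 0.0425), and 3 of 9 correlated best with their own number. Because such deviations also hold counting error, this check cannot exclude pairing by number.

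Leaving out 1 library gave 52 to 59 falling members in SNT-8, 45 to 53 in SNK-10, 38 to 46 in SNT-16 and 60 to 62 on average, and 2 to 3, 1 to 3, 1 to 3 and 2 to 3 rising. The response differed between lines for 1 member without the second SNT-8 DMSO library and for up to 6 without either the second or the third SNT-8 icaritin library, and for 5 without the third SNK-10 icaritin library. Members higher in SNK-10 numbered 3 without the second or the third SNT-8 icaritin library or the second SNK-10 icaritin library, and 2 without the first SNT-8 icaritin library; those higher in SNT-16 numbered 1 without the third SNT-16 icaritin library. DMSO differences ranged from 37 to 45 (SNK-10 and SNT-8), 31 to 40 (SNK-10 and SNT-16) and 1 to 5 (SNT-16 and SNT-8), the last being 1 without the third SNT-16 DMSO library and 5 without the third SNK-10 icaritin library. Medians of MRPL and MRPS ranged from -0.33 to -0.29 and -0.35 to -0.31 in SNT-8, -0.27 to -0.23 and -0.35 to -0.26 in SNK-10, and -0.27 to -0.19 and -0.25 to -0.19 in SNT-16. Dose and time course are not varied, and protein was not measured, so the values describe mRNA at 12 h only.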

Other observations

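Short members fell more than long ones. Across the 77 genes the average log2 fold change and the log2 transcript length had a Pearson correlation of 0.398 and a Spearman correlation of 0.429, a description over genes that share their libraries. The 39 shorter members, of 514 to 1196 bases, had a median log2 fold change of -0.35 and 35 fell, and the 38 longer ones, of 1205 to 7827 bases, had a median of -0.18 and 26 fell. The same direction was seen over all tested genes, where the median was -0.06 up to 1000 bases, -0.03 from there to 2000 and 0.06 above. Within those classes the members' medians were -0.30, -0.29 and -0.15. The part of length in the response was not tested.

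The mean level per gene of the large subunit was higher than that of the small subunit in every library, with a ratio of 1.122 ± 0.011 (SD, n = 3) in SNT-8 with DMSO and 1.160 ± 0.054 with icaritin. In SNK-10 the ratios were 1.114 ± 0.018 and 1.141 ± 0.009, and in SNT-16 1.127 ± 0.008 and 1.156 ± 0.020. Libraries of the 2 treatments overlapped in SNT-8, where the first icaritin library was at 1.104, and in SNK-10.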
